A study of Mus musculus with 7 samples.

Results

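ATAC-seq on sorted cells of the E9.5 second heart field (SHF) region gave 7 peak lists, and 2135 of 19104 protein-coding genes on chromosomes 1 to 19 had no peak at any annotated promoter in any of them. These genes were chosen by the peak lists themselves: a gene was kept when no window from 1000 bp upstream to 100 bp downstream of any of its RefSeq transcription start sites (TSSs, GRCm38) shared a single base with a deposited peak, however weak. Olfactory and vomeronasal receptor genes (symbols starting with Olfr, Vmn1r or Vmn2r, 1454 genes) were left out beforehand. The share of genes without a promoter peak, 11.2%, is the outcome of that rule and was not tested. All peak-based values of the promoter windows below are therefore descriptions.

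The libraries came from 2 mouse lines at E9.5. In the Hoxb1-GFP line, GFP reports Hoxb1, a gene active in progenitors at the posterior end of the SHF, and GFP+ cells (replicates 3 and 4) were sorted apart from GFP- cells (replicates 1 and 2). In the Mef2c-Cre;Rosa-tdT line, Cre under a SHF-restricted element of Mef2c switches on Tomato in progenitors of, above all, right ventricle and outflow tract, and Tomato+ cells (replicates 6 and 8) were sorted apart from Tomato- cells (replicate 7 alone). Both sorts started from dissected heart regions pooled over embryos, so the sort-negative cells are a mixture of the other cells of those regions and not a single cell type. The lists give no depths apart from 1 header, so the depth was estimated from the lowest background behind a fold value, which gave 52340120 to 93074895 tags if every list was called with the settings of that header. For the library with the header, Tomato+ replicate 6 by its label although the run name in the header contains YFP, the estimate was 52340120 and the header states 52340220. The lists held between 187914 and 291287 peaks, of which between 64306 and 77746 had a q-value of at most 0.01. The lists hold peaks only, so a window without a peak had no local excess of cuts that passed the caller's limit, and how many reads fell in it was not analysed here. With at most 2 libraries in a group no exact permutation test of sort-positive against sort-negative libraries of a line could pass the usual threshold (the smallest two-sided p from 2 against 2 is 0.333). The lines differ in more than the sort and were not tested against each other, and values are given without a test.

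In ATAC-seq a transposase cuts DNA that is not covered by nucleosomes, and promoters are the most regularly cut sites of the genome. Promoters of vertebrate genes fall broadly into 2 kinds. Those within CpG islands, stretches rich in the dinucleotide CG, belong to housekeeping and developmental regulators and tend to be free of nucleosomes in most cell types, also where the gene is silent. Those poor in CG, often with a TATA box, belong to genes of differentiated tissues and as a rule open only in the cells that use them.

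The promoters below show the contrast in the bases themselves. They are the 200 bases upstream of the TSS (GRCm38, from the RefSeq genome, 5′ to 3′ along the gene), with every CG in capitals. The first 5 were taken by rule, as the alphabetically first gene with a single TSS in each of the 5 symbol families with the most genes lacking a promoter peak. Isl1, a homeobox gene of SHF progenitors with a promoter peak in every library, was set beside them as a contrast, and Fgfr2, whose lack of a promoter peak is taken up further on, was added after its values were seen.
Gm10061 (predicted gene, chr16:89150939-89151138, + strand): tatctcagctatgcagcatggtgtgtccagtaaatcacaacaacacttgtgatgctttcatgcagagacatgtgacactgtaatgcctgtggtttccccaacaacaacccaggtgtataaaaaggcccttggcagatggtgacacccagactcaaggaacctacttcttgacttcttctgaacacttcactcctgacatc
1700001F09Rik (Riken cDNA gene, chr14:43347812-43348011, - strand): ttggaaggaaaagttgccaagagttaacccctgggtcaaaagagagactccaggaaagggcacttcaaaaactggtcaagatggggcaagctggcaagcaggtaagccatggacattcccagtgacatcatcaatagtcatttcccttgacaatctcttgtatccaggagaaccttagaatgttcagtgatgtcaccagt
Defa-ps8 (alpha-defensin, chr8:21270493-21270692, + strand): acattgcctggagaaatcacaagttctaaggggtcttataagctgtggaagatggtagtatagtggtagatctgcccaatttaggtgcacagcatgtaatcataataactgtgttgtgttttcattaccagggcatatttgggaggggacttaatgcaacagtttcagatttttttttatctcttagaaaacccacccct
Cyp2a12 (cytochrome P450, chr7:27028890-27029089, + strand): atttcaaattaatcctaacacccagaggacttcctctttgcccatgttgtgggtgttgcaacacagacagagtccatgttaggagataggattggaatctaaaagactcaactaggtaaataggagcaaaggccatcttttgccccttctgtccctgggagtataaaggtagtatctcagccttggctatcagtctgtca
Tas2r102 (bitter taste receptor, chr6:132761931-132762130, + strand): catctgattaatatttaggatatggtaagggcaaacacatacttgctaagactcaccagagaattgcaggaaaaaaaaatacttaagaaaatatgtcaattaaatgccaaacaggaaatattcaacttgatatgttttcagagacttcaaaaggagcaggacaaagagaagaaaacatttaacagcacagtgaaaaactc
Isl1 (promoter peak in all 7 libraries, chr13:116309689-116309888, - strand): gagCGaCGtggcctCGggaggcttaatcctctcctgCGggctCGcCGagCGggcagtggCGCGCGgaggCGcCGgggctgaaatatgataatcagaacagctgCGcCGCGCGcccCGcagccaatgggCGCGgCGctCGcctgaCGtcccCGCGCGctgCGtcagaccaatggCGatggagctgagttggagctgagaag
Fgfr2 (no promoter peak, chr7:130266809-130267008, - strand): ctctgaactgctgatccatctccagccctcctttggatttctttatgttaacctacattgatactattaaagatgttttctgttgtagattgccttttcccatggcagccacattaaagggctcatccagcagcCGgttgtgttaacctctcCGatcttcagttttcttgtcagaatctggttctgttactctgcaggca
The 5 promoters taken by rule held no CG in these 200 bases. Isl1 held 27 and Fgfr2 held 2. The windows of 1700001F09Rik and Defa-ps8 were in repeated sequence, with 10 and 2 copies. Actb, which encodes cytoplasmic actin and had a promoter peak in all 7 libraries, held 15 in the same stretch, which is not printed because it touches an exon of a predicted transcript.

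The same difference ran through the whole set. The ratio of observed to expected CG in the TSS window (the median over a gene's windows) had a median of 0.150 over the 2135 genes without a promoter peak, with quartiles of 0.0990 and 0.214. Over the 16969 genes with a promoter peak in 1 or more libraries the median was 0.475, with quartiles of 0.283 and 0.647. Of the genes without a promoter peak, 1505 (70.5%) had a ratio under 0.2 and 3 (0.141%) a ratio of 0.6 or more, against 13.5% and 31.6% of the others. Seen from the sequence, 39.6% of all genes with a ratio under 0.2 had no promoter peak in any library, and 0.056% of those with a ratio of 0.6 or more. Low CG content thus went with the lack of a peak in most members, but most genes with such promoters still had a peak in some library.

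**Figure D1:**
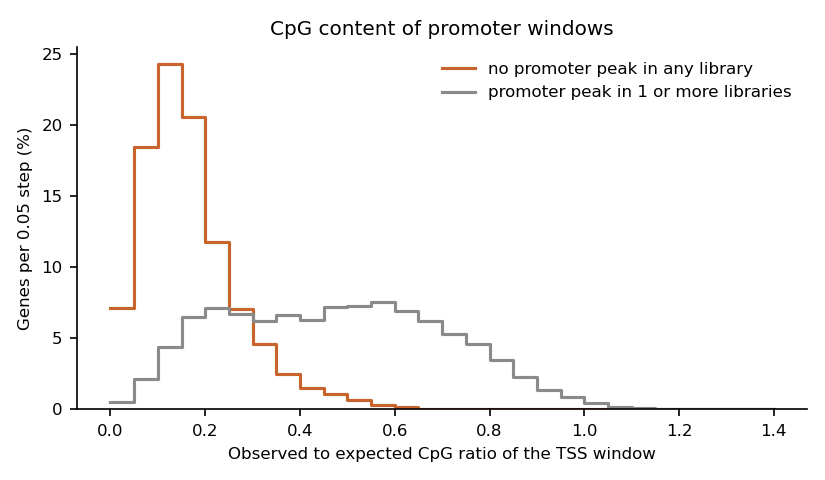
Percent of genes (y axis) in steps of 0.05 of the observed to expected CpG ratio of their TSS windows (x axis), for the 2135 genes without a promoter peak (orange) and the 16969 genes with one (grey). The orange curve is highest below 0.2, and the grey curve is spread up to ratios above 0.6.

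GC content followed, with a median of 41.9% in the windows of genes without a promoter peak and 50.9% in the others. In the 200 bases upstream of the TSS, 27.5% of the 3173 TSSs of these genes had no CG at all, against 5.49% of the 51236 other TSSs and 6.77% of all. The letters TATAAA, searched on both strands of these 200 bases, were found at 22.6% of their TSSs, 6.42% of the others and 7.36% of all. Within 11 to 60 bases upstream and on the gene's own strand, where a TATA box sits, the shares were 9.64%, 1.47% and 1.95%. A match is only a run of letters, and TATAAA is also likelier in AT-rich sequence.

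Other properties differed as well, and some of them feed into the rule. A gene with many TSSs has many chances to touch a peak: 20.5% of genes with 1 TSS had no promoter peak, 9.42% of genes with 2 and 5.11% of genes with 3. Of the 2135 genes, 1506 (70.5%) had a single TSS, against 34.5% of the others. They were short, with a median span of 7469 bp against 21771 bp. Repeated sequence was also more frequent, and there reads can be lost or shared between copies before peaks are called. By 31-mer counts, 454 of the genes (21.3%) had a TSS window present in 2 or more copies in the genome, against 4% of the others, and the remaining 1681 had windows in single-copy sequence only.

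The surroundings were sparse in peaks too. Within 50000 bp of the gene start, the number of peaks with q at most 0.01 (median over the libraries) had a median of 2 for genes without a promoter peak and 5 for the others. There was none within that distance at 529 of the genes (24.8%), against 1.35% of the others. Both counts include the gene's own TSS windows, where the rule allows these genes no peak. Part of both differences is therefore fixed by the selection, and counts without the windows were not made. The nearest deposited peak of any strength in any library lay a median of 1299 bp outside a window, within 1000 bp for 933 genes (43.7%) and within 10000 bp for 1905 (89.2%). The nearest peak of q at most 0.01 lay a median of 6276 bp outside.

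How many genes are left depends on how many lists are read. A single library left between 4077 (GFP+ replicate 3, the list with the most peaks) and 4592 (GFP- replicate 1, the list with the fewest) genes without a promoter peak, which is 21.3% and 24% of all. Any 2 libraries together left between 3261 and 3662, any 4 between 2545 and 2860 and any 6 between 2236 and 2390, so each further list still removed genes when all 7 were read. Most of what was removed late had little support: 1026 genes had a promoter peak in 1 library only, and at 154 of these it had a q-value of at most 0.01. Reading only peaks with q at most 0.01 left 4040 genes, of which 1905 had a weaker peak in 1 or more libraries. At the other end, 12871 genes (67.4%) had a promoter peak in all 7 libraries.

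**Figure D2:**
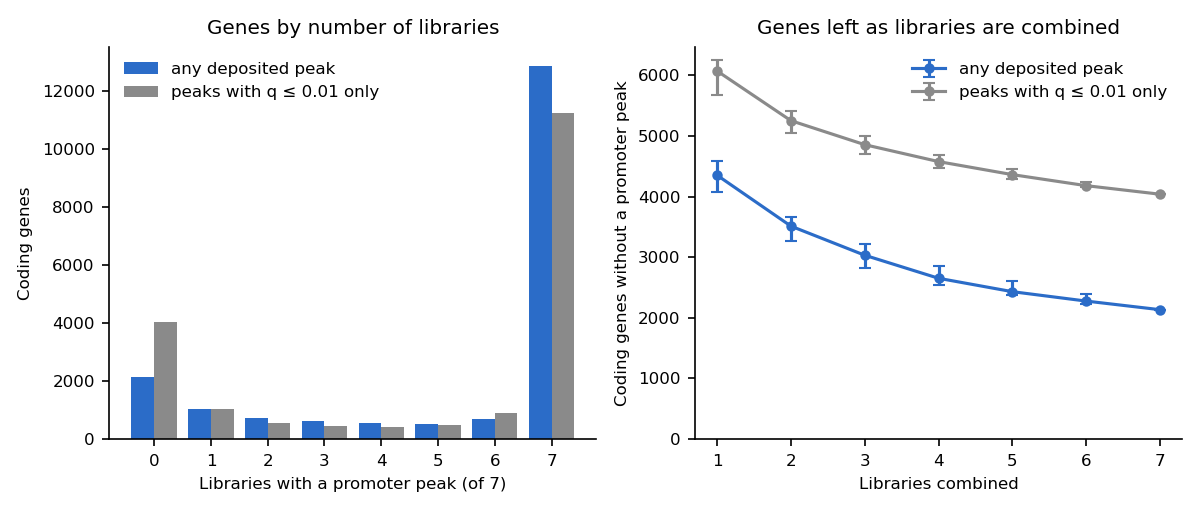
Left, number of coding genes (y axis) by the number of libraries with a promoter peak (x axis), for all deposited peaks (blue) and for peaks with q at most 0.01 (grey). Right, coding genes without a promoter peak (y axis) when 1 to 7 libraries are combined (x axis); points are medians over all combinations and bars run from the lowest to the highest. The blue curve falls to 2135 and the grey one to 4040.

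Over 64 families defined by their symbols, 1186 of the 2135 genes (55.6%) fell in a family. The share of all coding genes in these families was not counted. The 64 include the blocks of predicted genes (Gm, 423) and Riken cDNA genes (74), which are naming classes rather than gene families. Of the 64, 24 had at least 50% of their genes without a promoter peak, and 5 had none. These counts are to be read against the 11.2% of all coding genes, and genes of a family often lie side by side and share sequence, so they are not independent of each other.

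Chemosensory and related families were near the top. Of the bitter taste receptors (Tas2r, expressed in taste cells), 32 of 35 had no promoter peak, none of the 35 had a promoter peak with q at most 0.01, and 30 of the 32 had no peak in the gene body either. Of the Mas-related receptors (Mrgpr), found in nociceptive neurons, 16 of 20 lacked a promoter peak. Of the trace amine receptors (Taar), used in olfaction, 11 of 15 did. All 7 formyl peptide receptors (Fpr), which act in phagocytes and in the vomeronasal organ, did, as did all 15 exocrine gland peptides (Esp, pheromones), a name that was added after its count was seen. Among these families 2 of the 16 Mrgpr genes and none of the Tas2r, Taar or Fpr genes had a window in repeated sequence.

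Genes of reproduction, pregnancy and secretion formed the next group. The prolactin family, hormones of pituitary and placenta, had 23 of 25 genes without a promoter peak, and 20 of these 23 had no body peak. The caseins of milk had 4 of 5. Major urinary proteins (Mup) had 17 of 22 and secretoglobins (Scgb) 30 of 40, but 13 of those 17 and 19 of those 30 had a window in repeated sequence. The Pramel genes of germ cells and early embryos had 27 of 45, of which 20 were repeated, the oocyte-rich Nlrp genes 15 of 18 with none repeated, and the Adam proteases, many of them sperm proteins, 17 of 34. Of the pregnancy-specific glycoproteins and Ceacam genes, 14 of 28 lacked a promoter peak, and of the genes matched as cystatins 15 of 30. That match by symbol includes Cstf1, Cstf2t and Cstf3, which had a promoter peak and are not cystatins.

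Many skin, immune and liver families were also well above the background. The MHC (H2) genes, with 6 of 35 (17.1%), and the Trim genes, with 8 of 68 (11.8%), were nearer to it. The cornified envelope proteins (Lce, Sprr), which stiffen the outer epidermis, had 27 of 35 genes without a promoter peak, and 33 of 35 without one of q at most 0.01. All 11 Skint genes, of skin and thymic epithelium, had none. The keratin-associated proteins of hair had 27 of 56 and the keratins 11 of 53. The defensins, antimicrobial peptides, had 50 of 71, of which 29 had a repeated window. Among defensins in single-copy sequence the count was 21 of 40. The NK cell lectin receptors (Klr) had 19 of 27, of which 6 had a repeated window. The Ms4a genes of B cells and macrophages had 14 of 21, the Reg lectins of gut and pancreas 7 of 7 and the C-type lectins 15 of 33. The interferons had 9 of 20, the chemokines 8 of 36 and the interleukins 7 of 33. Of the cytochromes P450 of families 2, 3 and 4, enzymes of drug and fatty acid metabolism, 37 of 77 had none, as did 13 of 22 glucuronosyltransferases (Ugt), 13 of 21 sulfotransferases (Sult) and 10 of 19 carboxylesterases.

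At the low end stood transcription factors, signalling ligands and the common machinery of cells. Families were matched by symbol. The Tbx count therefore includes Tbxa2r and Tbxas1, and the Bmp count Bmp2k, which are neither T-box factors nor ligands. None of 41 Fox genes, 14 Tbx genes, 19 Wnt genes and 11 Bmp genes lacked a promoter peak, nor did any of 34 serotonin, dopamine and nicotinic receptor genes. Of 388 Zfp genes 11 did (2.84%), and of 92 potassium channel genes 3. The ribosomal protein symbols had 5 of 94, and these 5 were Rpl10l, Rpl31-ps12, Rpl32l, Rpl34-ps1 and Rps27rt, whose names mark them as like-genes or processed copies rather than the main genes. Likewise the 2 of 47 Nduf genes were Ndufb4b and Ndufb4c, and the 2 of 81 histone genes were H2al2a and H2bl1, variants of spermatids. The 1 of 39 proteasome genes was Psmb10, a subunit of the immunoproteasome. The 1 of 42 collagens was Col3a1, of fibrous connective tissue, and the 1 of 18 Sox genes was Sox15. These were named after their values were seen.

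The Hox genes, which set position along the body axis, were the developmental family with the most members, 5 of 39. This share, 12.8%, was close to the 11.2% of all coding genes. The 5 were Hoxa6, Hoxa7, Hoxb6, Hoxc5 and Hoxc12 (named after their values were seen). For Hoxb6 the nearest peak of q at most 0.01 began 16 bp beyond a window, for Hoxc5 71 bp and for Hoxa7 675 bp, and in these 3 genes such peaks within 2000 bp downstream of a TSS were present in 6, 6 and 5 libraries. The best fold enrichment of a body peak in Hoxc5 was 2.27 and 3.34 in GFP- cells, 3.10 and 3.41 in GFP+ cells, 3.34 and 3.08 in Tomato+ cells and 2.39 in Tomato- cells. The GFP+ and GFP- values overlapped, and the single Tomato- value was below both Tomato+ values. Hoxa6 and Hoxc12 had no such peak within 1000 bp of a window, and body peaks of that strength in 1 library each.

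The clustered protocadherins, adhesion proteins of neurons that are expressed from alternative first exons, were not among the 64 families and were counted after their values were seen. Of the Pcdhb genes 20 of 22 had no promoter peak, of the Pcdha genes 10 of 12 and of the Pcdhg genes 10 of 21. Their windows were richer in CG than those of most genes described here, with a median ratio of 0.325, 0.412 and 0.360 in the order named. Symbols of predicted genes (Gm) made up the largest single block, 423 of 961, and 221 of the 423 had a window in repeated sequence. Riken cDNA symbols had 74 of 396.

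**Figure D3:**
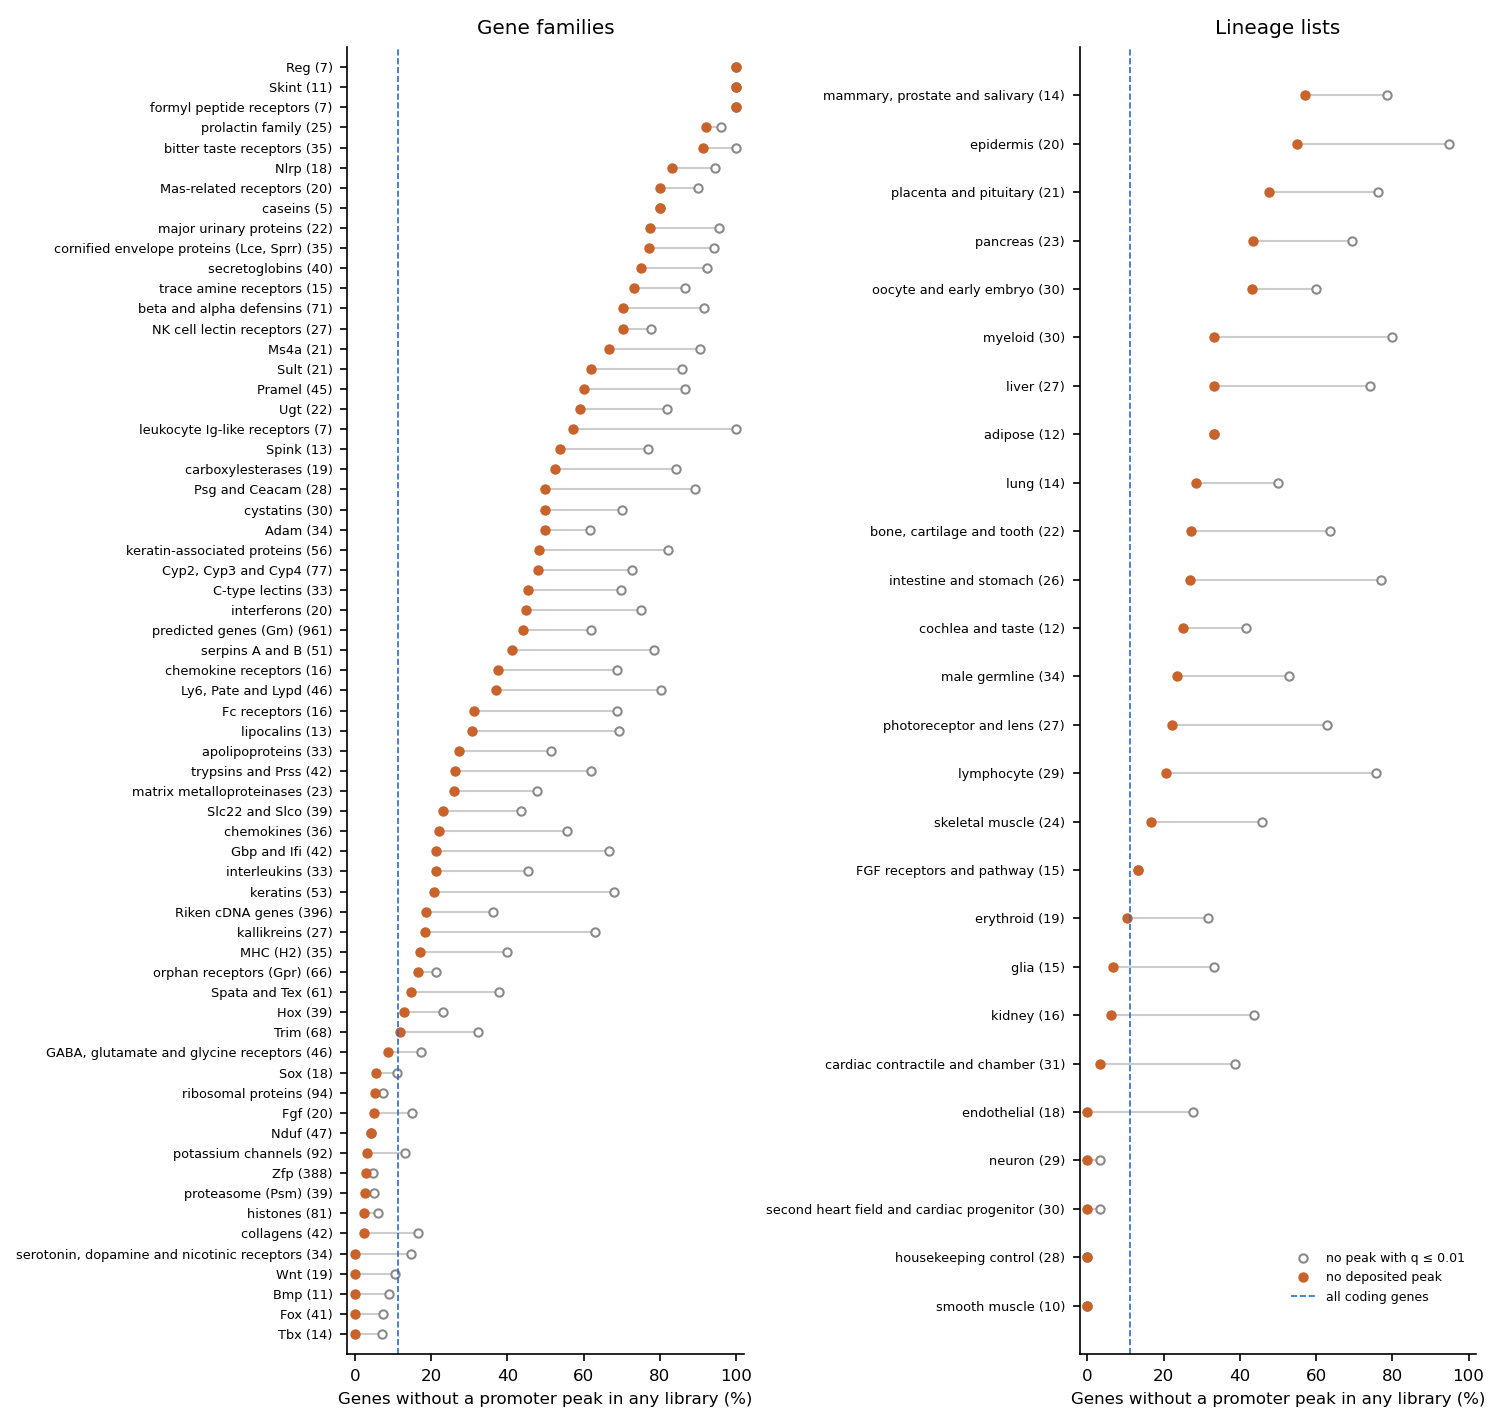
Percent of genes without a promoter peak in any library (x axis) for 64 families of gene symbols (left) and 26 lineage lists (right), with the number of genes in brackets; filled points count all deposited peaks, open points only peaks with q at most 0.01, and the dashed line marks the 11.2% of all coding genes. Families run from 100% (Reg, Skint and formyl peptide receptors) to 0 (Fox, Tbx, Wnt, Bmp and the serotonin, dopamine and nicotinic receptors).

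Lineage lists ordered the genes by tissue. Over 26 lists with 576 genes on these chromosomes, 126 genes had no promoter peak. The lists of the sorted progenitors and of several other lineages had none. None of 30 SHF and cardiac progenitor genes, 18 endothelial genes, 10 smooth muscle genes, 29 neuronal genes and 28 housekeeping genes was without one. In the SHF list 16 genes had such a peak at q up to 0.01 in all 7 libraries and 1, Hand1 (named after its value was seen), had it in none, though a weaker peak in 2. Of 31 cardiac contractile and chamber genes, Pln, the phospholamban that restrains the calcium pump of cardiac muscle, was the 1 without a promoter peak. Pln had body peaks in 4 libraries, 1 of them with q at most 0.01, with a best fold of 3.52 in GFP- replicate 1, 2.71 in GFP+ replicate 3, 3.29 in Tomato+ replicate 6 and 2.16 in Tomato- replicate 7, so no group had one in both of its libraries. Reading only peaks with q at most 0.01, 12 of the 31 contractile genes had no promoter peak, against 1 of the 30 progenitor genes and 21.1% of all coding genes.

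Muscle and blood lists lay on either side of the 11.2% of all coding genes. Of 24 skeletal muscle genes, 4 (16.7%) had no promoter peak: the myogenic factor Myf6 and the myosin heavy chains Myh2, Myh3 and Myh8. Myf6 had its nearest deposited peak 82 bp from the window and body peaks in every library, with a best fold of 3.02 and 3.53 in GFP- cells, 4.22 and 4.0 in GFP+ cells, 3.94 and 3.4 in Tomato+ cells and 4.96 in Tomato- cells. The body peak had q at most 0.01 in 6 of 7 libraries and the single Tomato- value was the highest. Of 19 erythroid genes, 2 (10.5%) had no promoter peak, Hbb-bt (adult beta-globin) and Rhag (a red cell ammonia channel). Of 29 lymphocyte genes there were 6 (20.7%), Cd2, Ctla4, Gzma, Gzmb, Il7r and Ptprc. Of 30 myeloid genes there were 10 (33.3%), which include the monocyte receptors Ccr2 and Cd14, the lysosomal Cd68, the lysozyme Lyz2, the microglial partners Trem2 and Tyrobp, and Cpa3, Ctsg, Fcer1a and Mcpt4 of mast cells and granulocytes.

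In the lists of inner organs, 9 of 27 liver genes had no promoter peak. These were the plasma proteins Alb, Afp, Ambp, Apoh and Ttr and the enzymes Cps1, Cyp7a1, Tat and Ugt2b1. Alb had body peaks in 6 of 7 libraries with a best fold of 3.02 and 5.16 in GFP- cells, 4.82 and 3.0 in GFP+ cells and 3.29 and 3.4 in Tomato+ cells, and none in Tomato- cells, where a single library stands alone. Of 23 pancreatic genes there were 10: the hormones Ins1, Gcg and Iapp, the islet genes G6pc2 and Slc2a2 and the digestive enzymes Amy2b, Cela3b, Pnlip, Pnliprp1 and Prss1. Of 26 intestinal and gastric genes there were 7 (Apoa4, Defa24, Fabp1, Fabp2, Reg3b, Reg3g and Sis), of 14 lung genes 4 (Bpifa1, Lamp3 and the surfactant proteins Sftpc and Sftpd), of 12 adipose genes 4 (Adipoq, Cfd, Fabp4 and Plin1), and of 16 kidney genes Cubn alone.

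The mammary, prostate and salivary list (57.1%) and the epidermal list (55%) had the largest shares of the 26. In the epidermal list 11 of 20 genes had no promoter peak: Dsc1, Dsg1a and Dsg3 of desmosomes, Flg, Ivl, Krtdap, Lce1a1, Lor, Sprr2d and Tchh of cornification, and Trp63, the master regulator of stratified epithelium. Of 14 mammary, prostate and salivary genes there were 8 (Amy1, Csn1s1, Csn1s2a, Csn1s2b, Csn2, Prol1, Smr3a and Spink1), and of 21 placental and pituitary genes 10 (Ceacam5, Ctsj, Fshb, Prl, Prl2c2, Prl3d1, Prl8a9, Synb, Tpbpb and Tshb). Prl, which encodes prolactin, had no body peak in any library, and its nearest deposited peak lay 21402 bp outside the window. Of 30 oocyte and early embryo genes there were 13 (Khdc3, Mos, Nanog, Nlrp14, Nlrp5, Obox1, Obox5, Obox6, Oosp2, Oosp3, Zp1, Zscan4c and Zscan4d), and of 34 male germline genes 8 (Akap3, Hils1, Izumo1, Pgk2, Smcp, Spata16, Tnp2 and Tssk1). The photoreceptor and lens list had 6 of 27 (Crx, Crygb, Mip, Pde6b, Rpe65 and Tyr), the cochlea and taste list 3 of 12 (Tas1r3, Tecta and Tectb), the glial list 1 of 15 (Mog), and the bone, cartilage and tooth list 6 of 22 (Ambn, Amtn, Bglap2, Enam, Mepe and Odam).

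Of 15 FGF receptors and pathway genes, 11 had a promoter peak of q at most 0.01 in all 7 libraries, against 58.9% of all coding genes. A promoter peak of any strength was missing at 2 (13.3%), close to the 11.2% of all coding genes. These were the ligand Fgf7 and the receptor Fgfr2. The other 3 receptors, Fgfr1, Fgfr3 and Fgfr4, were among the 11. The nearest peak of q at most 0.01 lay 4619 bp from the window of Fgf7 and 161 bp from that of Fgfr2.

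Genes without a promoter peak lay together. Coding genes were counted in order along the chromosomes after the receptor genes were left out, which may therefore lie between neighbours. Of the 2135 genes, 941 stood alone and 1194 (55.9%) had at least 1 direct neighbour of the same kind. There were 58 runs of 5 or more such genes, which held 516 genes (24.2%). The longest was a run of 23 secretoglobins on chromosome 7, from Scgb2b10 to Scgb1b26-ps (32091990 to 33959986), where 18 of 23 windows were repeated and none of the 23 genes had a body peak. Next came 20 genes on chromosome 17 from H2-M2 to Esp1 (15 of them Esp), 19 genes on chromosome 6 from A630073D07Rik to Tas2r140 (18 of them Tas2r), 18 prolactin genes on chromosome 13 from Prl3b1 to Prl5a1, and 17 genes on chromosome 7 from Ceacam20 to Gm6902, level with a run of 17 Pcdhb genes. Over the 430683 bp of the Tas2r run the libraries held between 1 and 3 peaks of q at most 0.01, and over the 909166 bp of the prolactin run between 3 and 6. Per chromosome the share of genes without a promoter peak ran from 6.76% on chromosome 2 to 16.7% on chromosomes 6 and 18.

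Gene bodies were then read, counting peaks that overlap the gene and none of its own TSS windows. Of the 2135 genes, 1526 (71.5%) had a body peak of any strength in 1 or more libraries, against 94.7% of all coding genes. With q at most 0.01 in 1 or more libraries there were 942 (44.1%), against 80.5% of all, and with q at most 0.01 in all 7 libraries 242 (11.3%), against 23.9% of all. The remaining 609 genes had no peak in promoter or body in any library.

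Part of these gaps went with length, since a long body offers more sequence. Among genes with a body of over 5000 and up to 10000 bp, 70.3% of the genes without a promoter peak had a body peak and 38.4% had one with q at most 0.01, against 97% and 73.3% of the genes with a promoter peak. Among bodies over 100000 bp, all 94 genes without a promoter peak had a body peak and 97.9% had one with q at most 0.01, against 99.7% of the others. Genes with a body peak of q at most 0.01 in each of the 7 libraries were also counted, wherever in the body it lay. Their shares were close in short genes (7.98% and 7.25% between 5000 and 10000 bp) and apart in long ones (25.2% and 46.2% between 50000 and 100000 bp). Per 100000 bp of body, the libraries held 5.22 to 8.94 peaks in genes without a promoter peak and 9.33 to 14.1 in the others. For peaks of q at most 0.01 the ranges were 1.81 to 2.44 and 2.32 to 2.99.

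**Figure D4:**
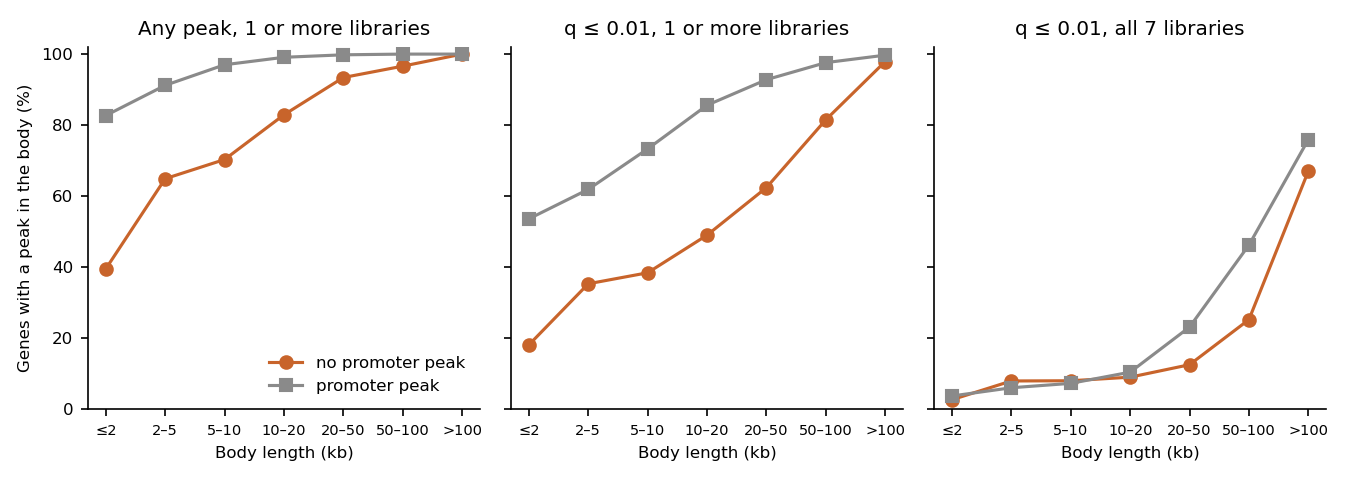
Percent of genes with a peak in the body (y axis) by length of the body outside the TSS windows in kb (x axis), for genes without (orange) and with (grey) a promoter peak; panels show any peak, peaks with q at most 0.01 in 1 or more libraries, and in all 7 libraries. The curves meet in the longest bodies in the first 2 panels, and in the third they lie together up to 20 kb.

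The libraries resembled each other in which genes had body peaks. Between 440 (GFP- replicate 1) and 527 (Tomato- replicate 7) of the 2135 genes had a body peak of q at most 0.01 in a given library, and 242 had it in all 7, 301 in 1 only. In the 3 pairs of libraries of the same group, 327 to 349 genes had it in both, which is 67.1% to 75.9% of either library's genes. In the 18 pairs of different groups it was 318 to 369 genes, or 64.1% to 80.5%. The 2 ranges overlapped. Both GFP+ libraries and neither GFP- library had such a peak in 32 genes (1.5%), against 2.63% of all coding genes, and the reverse held for 12 (0.562%), against 2.18% of all. Both Tomato+ libraries and not the Tomato- library had it in 40 genes (1.87%), against 4.37% of all, and the Tomato- library alone of this line in 124 (5.81%), against 7.87% of all. All 4 GFP+ and Tomato+ libraries and no sort-negative library had it in none of these genes, against 0.22% of all, and the reverse held for 1, Prb1 (0.0468%), against 0.33% of all. In each of these 6 patterns the share was below that of all coding genes, as was the share with such a peak in 1 or more libraries.

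The strongest body peaks lay mostly in repeated sequence. Merging the peaks of q at most 0.01 within a gene gave 300 regions, in 206 genes, that held a peak of each of the 7 libraries. Of these, 66.3% lay in introns, 94 touched a coding exon and 7 an untranslated exon. By 31-mers 122 (40.7%) were in sequence of 2 or more copies, and among the 20 regions of highest median fold 18 were. None shared a 31-mer with the mitochondrial genome. Shared regions in the bodies of other coding genes were not compared. In Rp1, a photoreceptor gene and the first of the 10 genes named for the strongest shared body peaks, an intronic region (chr1:4212815-4213232) had a fold enrichment of 48.6 and 52.0 in GFP- cells, 46.3 and 51.1 in GFP+ cells, 45.3 and 46.1 in Tomato+ cells and 41.9 in Tomato- cells, and its 31-mers had a median of 5726 copies in the genome. The GFP+ and GFP- values overlapped, and the Tomato- value was below both Tomato+ values. The other 9 were Gm51415, Skint5, Gm17783, Tmprss11b, Gm40365, Nanog, Slc22a22, Slc22a29 and Nlrp9a.

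Nanog, the pluripotency factor, had no promoter peak, but an intronic region (chr6:122711203-122711450) with a fold of 20.7 and 20.98 in GFP- cells, 21.1 and 19.4 in GFP+ cells, 19.8 and 19.7 in Tomato+ cells and 21.2 in Tomato- cells. The GFP+ and GFP- values overlapped, the Tomato- value was above both Tomato+ values, and the 31-mers of the region had a median of 1074.5 copies. How far reads of other copies contributed to these peaks was not tested. Skint5 and Slc22a29 were the exceptions in single-copy sequence among the 20 regions. In Skint5 the region chr4:113971272-113971587, an intron, had a fold of 24.9 and 28.5 in GFP- cells, 28.3 and 28.8 in GFP+ cells, 29.5 and 38.6 in Tomato+ cells and 37.8 in Tomato- cells. All 3 libraries of the Mef2c-Cre;Rosa-tdT line were above all 4 of the Hoxb1-GFP line, a split that was not tested. Over all shared regions the median fold had a median of 6.74 in repeated and 5.46 in single-copy sequence.

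The 5 longest genes of the set were Lrp1b (2058309 bp), a lipoprotein receptor of neurons, the predicted genes Gm37013, Gm38666 and Gm38667, whose spans overlap on chromosome 18 and therefore share peaks, and Iqschfp (734263 bp), a read-through gene. Lrp1b held 7 to 16 body peaks of q at most 0.01 per library. Of the 300 shared regions, 79 lay in the TSS window of another coding gene, and for 54 genes all shared regions did, so that the peak may equally be counted to the neighbour. The other 152 genes had at least 1 shared region outside every other coding gene's window.

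A last group had peaks just past the edge of the window. In 71 genes (3.33%) a peak of q at most 0.01 lay more than 100 and up to 2000 bp downstream of a TSS in all 7 libraries, against 3.49% of all coding genes, so such peaks were about as frequent as elsewhere. In 33 genes a region shared by all 7 libraries was centred within that distance, in single-copy sequence and outside every other coding gene's window. This subset was formed after the values were seen. The sequence under these regions differed from the annotated promoter: their GC content was higher than that of the gene's TSS windows in 33 of 33 genes (median 63.1% against 44.0%), and their observed to expected CpG ratio in 32 of 33 (median 0.715 against 0.198). The exception was Fbp2, a muscle fructose bisphosphatase, with 0.266 in the region and 0.273 in the window. In 24 of 33 the region had a ratio of 0.6 or more, which 3 of the 2135 genes had in their windows. The windows were chosen for lacking a peak and the regions for holding one, so the contrast is not independent of that choice. Most of these regions touched a coding exon. Regions of the same kind in other genes were not compared, and whether these regions act as promoters was not tested.

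Fgfr2, the FGF receptor of many embryonic epithelia and mesenchyme, shows the difference in sequence between window and region. Its single annotated TSS (chr7, position 130266808, - strand) lay in the CG-poor sequence printed above, with a ratio of 0.258 in the window. The region chr7:130265702-130266547, which touches an untranslated exon and is centred 684 bp downstream of the TSS, had a ratio of 0.946 and a fold of 5.15 and 7.38 in GFP- cells, 8.08 and 6.03 in GFP+ cells, 7.54 and 4.65 in Tomato+ cells and 5.01 in Tomato- cells. The GFP+ and GFP- values overlapped, as did the Tomato+ values with the Tomato- value. Ccna2, cyclin A of dividing cells, had a region centred 1115 bp downstream (chr3:36571356-36572490, touching a coding exon) with a fold of 10.7 and 12.6 in GFP- cells, 10.1 and 13.4 in GFP+ cells, 10.9 and 12.9 in Tomato+ cells and 13.3 in Tomato- cells. In Laptm4a, a lysosomal membrane protein of most cells, the region chr12:8921436-8922473 had a fold of 8.49 and 10.9 in GFP- cells, 9.51 and 10.7 in GFP+ cells, 10.3 and 12.3 in Tomato+ cells and 11.0 in Tomato- cells. In both genes the GFP+ and GFP- values overlapped. The Tomato- value was above both Tomato+ values in Ccna2 and between them in Laptm4a.

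In Gpr85, an orphan receptor of the nervous system, the region centred 733 bp downstream (chr6:13838433-13839145) had a fold of 9.31 and 7.87 in GFP- cells, 8.13 and 9.73 in GFP+ cells, 5.56 and 6.23 in Tomato+ cells and 6.04 in Tomato- cells. All 4 libraries of the Hoxb1-GFP line were above all 3 of the Mef2c-Cre;Rosa-tdT line, a split by mouse line and not by sort that was not tested. Crh, the stress hormone of the hypothalamus, Psmb10, Grin2a, a glutamate receptor subunit, Lor, Mos and Khdc3 had regions of the same kind, with median folds of 6.04, 4.82, 3.59, 6.59, 5.16 and 4.19. The remaining 23 genes had median folds between 3.41 and 20.1, the highest in Slc22a29.

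**Figure D5:**
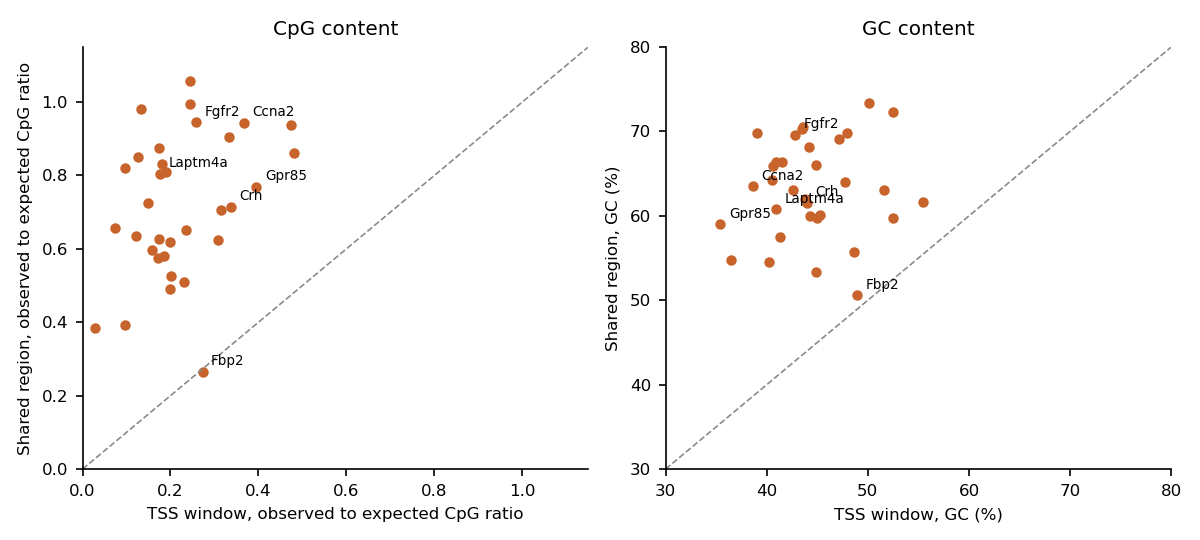
For the 33 genes with a single-copy region shared by all 7 libraries within 2000 bp downstream of a TSS, CpG ratio (left) and GC content (right) of the TSS window (x axis) against those of the region (y axis); each point is a gene and the dashed line marks equal values. All points lie above the line except Fbp2 in the left panel.

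At the edge of the rule a single base decided. The 5 members closest to a peak were Krt31 and Mgat4d, each 1 bp away, and Crh, Gpa33 and LOC115486880, each 2 bp away, and 235 members had a deposited peak within 100 bp of a window. Just outside, Actbl2, Erp27, Gm10229, Hnrnpa1l2-ps2 and Sirpb1c each shared 1 bp with a peak of 1 library, none of which had a q-value of at most 0.01.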

How the data were processed

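ATAC-seq peak lists of 7 libraries were analysed. According to the study's methods, reads were aligned to GRCm38 with SNAP, and duplicate, secondary, improperly paired and blacklisted reads were removed. The authors called peaks per library with MACS2 and deposited positions, pileup signal at the summit, a ratio of fold enrichment over the local background, and p- and q-values as −log10. The submitters' processing notes name MACS2 2.1.1. The one list that kept its header, of Tomato+ replicate 6, names MACS 2.1.0.20150731 and a run name with YFP in place of Tomato. The label was followed. This header records a p limit of 0.01, no control sample, and 49 bp tags shifted by 37 bp and extended to 73 bp. Weak peaks are therefore included, and their number can differ between libraries for technical reasons. It did not rise with the estimated depth. Tomato- replicate 7, with the most estimated tags (93074895), listed 202837 peaks, and GFP+ replicate 3, with 59435263, listed 291287.

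Here, rows for several summits of 1 peak were merged, keeping the highest value, and peaks were overlapped (1 bp or more) with windows of 1101 bp around RefSeq TSSs of GRCm38. A gene's body was its span without its own windows. Copy number was the median genome count of 31-mers, and a median of 2 or more was called repeated. Counts were made in Python 3.11.15 with numpy 2.4.6 and pandas 2.3.3, with code tested on simulated data. Nothing was tested between groups, since groups held 2, 2, 2 and 1 libraries.

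Genes were named by rule: members of the lineage lists, the 10 with the strongest body peaks shared by most libraries, the 5 longest, the 5 longest runs, and the 5 nearest the edge on either side. Most genes named otherwise are marked as such. Ccna2, Laptm4a, Gpr85, Grin2a, Fbp2 and Prb1 were also named after their values were seen. The members, families and lists were chosen with earlier results of these data known. The alternatives were peaks of q at most 0.01, other windows, curated transcripts, 50% overlap, single-copy windows, bodies 2000 bp from any TSS, and leaving out each library.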

Additional observations from a re-analysis of the deposited data

How the results depend on the processing

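The number of genes without a promoter peak (2135) was 4040 when peaks with q at most 0.01 alone were read, and 1369 with a window from 2000 bp upstream to 500 bp downstream. It was 1934 with 500 bp on either side, 2109 with curated transcripts, 2708 when a peak had to overlap by 50% and 1681 with single-copy windows. Under the q limit, 3304 of the 4040 genes had any body peak, 2289 had one with q at most 0.01 and 540 had it in all 7 libraries, the median CpG ratio was 0.169, 15.2% had a repeated window, 40 families had 50% or more of their genes in the set, and 281 listed lineage genes were in it. The median CpG ratio, 0.150 as reported, was 0.162 with 500 bp on either side, 0.157 with curated transcripts and 0.157 with single-copy windows. With curated transcripts 15.2% of genes had a repeated window. Leaving out 1 library gave 2236 to 2390 genes without a promoter peak, 1595 to 1681 with any body peak, 947 to 1024 with one of q at most 0.01, 262 to 278 with it in all remaining libraries, and 77 to 82 with a downstream peak in all remaining libraries. The last range and the downstream count in single-copy windows (62) were added after the data were seen. The cause of these shifts was not tested, except that fewer peaks or libraries leave more genes by construction. No paired analysis was made, because the labels do not say which libraries came from the same pool of embryos.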
